A study of Capra hircus with 40 samples.

Results

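The data described here are the miRNA profiles of goat ovary at 6 months of age set against those at 2 months, an interval that the study placed within sexual maturation. All 5 ovary libraries labelled month 6 and all 5 labelled month 2 were taken, 10 of the 40 libraries of the series, with all 427 rows of the miRNA count table. Small RNA was sequenced from ovary and uterus of female Jining gray goats at day 1 and at months 2, 4 and 6, with 5 numbered individuals for every tissue at every age (8 groups). The goats came from 1 farm and were kept under the same conditions, with no genotype or treatment named. Each month 6 or month 2 library stands for 1 numbered goat, and the labels name neither the part of the ovary nor the stage of the cycle.

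MicroRNAs are short RNAs cut from hairpin precursors. Either arm of the hairpin (5p or 3p) can be loaded into an Argonaute protein, where bases near the 5′ end of the miRNA, the seed, pair with messenger RNAs and lower their translation or stability. In the ovary they act in granulosa cells, which surround and feed the oocyte, in theca and stromal cells, and in the vessels and muscle of the organ; follicles grow and regress in large numbers before puberty. miR-202, a miRNA of the gonads, served as the check of the tissue label. In ovary miR-202-5p lay between 52.2 and 145 CPM (counts scaled to a library total of 1000000) at month 2 and between 28.3 and 131 CPM at month 6. In uterus of the same ages it did not exceed 0.402 CPM, and miR-202-3p had no count there.

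The 10 libraries held 5719892 to 8017302 counts. Between 344 and 369 miRNAs were detected in each at 1 count or more, 359.6 ± 7.30 at month 2 and 361.4 ± 10.1 at month 6 (mean ± SD, n = 5), a difference of 1.80 (exact permutation test, two-sided, p = 0.794). Month 6 replicates 2 and 4 stood apart from the rest of their group: both lay above all 8 other libraries for 50 of the 317 miRNAs tested and below all 8 for 75. Their mean rank correlation with the month 2 libraries was 0.912 and 0.900, against 0.925, 0.959 and 0.968 for month 6 replicates 1, 3 and 5. With the other libraries of their own group they correlated at 0.914 and 0.911, and with each other at 0.940. Month 6 replicate 1 had the lowest correlation with its own group, 0.897, against 0.921 and 0.927 for replicates 3 and 5. Values without replicates 2 and 4 are given beside the main results, and those without replicate 1 where a count or median turned on it. The median SD of log2(CPM + 1) within the group was 0.453 at month 2 and 0.641 at month 6, and 0.423 among month 6 replicates 1, 3 and 5.

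Between month 2 and month 6 in ovary, 2 of 317 miRNAs tested (0.631%) passed the quasi-likelihood test of edgeR (adjusted p under 0.05). They were miR-29b-3p and let-7b-3p, both present at month 2 and with higher estimates at month 6, about 9.22-fold and 8.85-fold. At an unadjusted p under 0.05 there were 61 miRNAs (19.2%), 39 higher (12.3%) and 22 lower (6.94%) at month 6. The Wald test of DESeq2 called 25 (7.89%), 21 higher and 4 lower, the 2 edgeR calls among them. With library totals in place of scaling by trimmed means (TMM), the median change over all miRNAs moved from 0.02 to -0.23 on the log2 scale and the miRNAs at an unadjusted p under 0.05 were 18 higher and 31 lower. Directions of small changes are therefore relative to the scaling. Without month 6 replicates 2 and 4 the edgeR count was 0 of 333, with 23 at an unadjusted p under 0.05, and with ovary day 1 replicate 3 also left out it was 2, miR-148b-3p and miR-29b-3p. The count was 21, 12 or 11 without month 6 replicate 1, 3 or 5, 3 without month 2 replicate 4, and 0 without any other single library of the 2 groups.

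**Figure D1:**
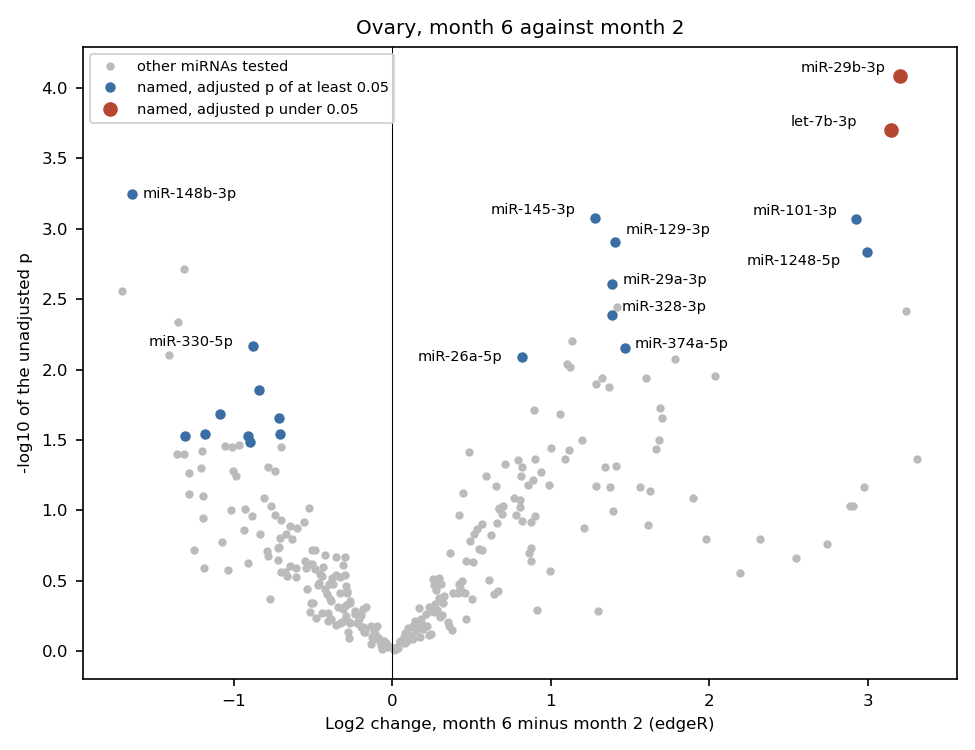
Log2 change (month 6 minus month 2, edgeR) against the -log10 of the unadjusted p for the 317 miRNAs tested in ovary. Red points are the 2 miRNAs with an adjusted p under 0.05, blue points the other 18 chosen by the naming rule, and grey points the rest.

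The miR-29 family, whose members repress collagen and other matrix genes, held 1 of the 2 calls. miR-29b-3p stood at 1.02, 2.10, 1.76, 5.84 and 1.90 CPM in the 5 month 2 libraries, from 7 to 40 counts each. At month 6 it stood at 11.9, 29.6, 11.9, 39.4 and 9.11 CPM, from 59 to 316 counts. Every month 6 library was above every month 2 library, and the nearest pair was month 2 replicate 4 and month 6 replicate 5. The log2 change was 3.21 ± 0.65 (± SE, n = 5 a group; edgeR adjusted p = 0.0259). Without month 6 replicates 2 and 4 it was 2.32 ± 0.64 and no longer passed (edgeR adjusted p = 0.567), although the 3 other month 6 libraries also lay above all of month 2. With ovary day 1 replicate 3 left out as well it was 2.22 and passed (edgeR adjusted p = 0.0391). The call was also lost without month 2 replicate 1, 2, 3 or 5 or month 6 replicate 2 or 4 alone, where the change stayed between 2.86 and 3.31 and the adjusted p of edgeR ran from 0.0507 to 0.117. With only the 10 libraries of the 2 groups in the fit it was 3.25 (edgeR adjusted p = 0.0558). At month 4 the level was 13.0 ± 2.86 CPM (mean ± SD, n = 5).

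miR-29a-3p, the abundant member, stood at 379, 277, 530.5, 914 and 502 CPM at month 2 and at 873, 1964, 765, 1313 and 1007 CPM at month 6. Month 2 replicate 4 lay within the month 6 range and the other month 2 libraries below it. Its log2 change was 1.39 ± 0.40 and did not pass (edgeR adjusted p = 0.0867, DESeq2 adjusted p = 0.00845). Month 6 replicates 2 and 4 were its highest libraries, and without them the change was 0.99 ± 0.39 (edgeR adjusted p = 0.681). The passenger arms miR-29a-5p, miR-29b-5p and miR-29c-5p were at 0.81 ± 0.44, 0.90 ± 0.54 and 0.89 ± 0.45, none of them called. All 5 tested members had a positive estimate, with a median of 0.90 against 0.02 over all miRNAs. Of them 1 was called, where 0.631% of all miRNAs were. Both arms of miR-29a and of miR-29b are among these 5, so they stand for fewer hairpins. The family had 6 entries, and the 1 not tested had no count in the 10 libraries. Over the alternatives to the main settings the family's median stayed between 0.74 and 1.51.

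let-7b-3p, the minor arm of the let-7b hairpin, was at 66.7, 181, 73.8, 73.2 and 108 CPM at month 2 and at 279, 1421, 174, 1644 and 109 CPM at month 6. Month 6 replicates 2 and 4 were far above all others. Replicate 1 was also above every month 2 library, and replicates 3 and 5 lay within the month 2 range. The log2 change was 3.15 ± 0.69 (edgeR adjusted p = 0.0317). It was 1.11 ± 0.52 without month 6 replicates 2 and 4 (edgeR adjusted p = 0.681). The call was also lost with the replicate number as a block (2.65, edgeR adjusted p = 0.0560), with only the 2 groups in the fit (3.18, edgeR adjusted p = 0.132), and without any single month 2 library or month 6 replicate 2 or 4, at changes of 2.59 to 3.64.

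The major 5p arms of let-7, which repress growth genes and are a large share of all counts in mature tissue, were low in the 2 libraries in which let-7b-3p was highest. Summed over 9 members they held 412834, 396077, 344503, 335607 and 359921 CPM at month 2. At month 6 they held 357233, 76410.5, 330562, 80369.7 and 386780 CPM, so that replicates 2 and 4 were far below every other library while the rest overlapped month 2. The 9 3p arms in the table, 6 of them tested, had sums of 582, 850, 561, 493 and 661 CPM at month 2 and 815, 2610.5, 558, 2799.9 and 499.8 CPM at month 6, with replicates 2 and 4 the highest. All 9 estimates of 5p arms were negative (median -0.31) and all 6 of 3p arms positive (median 0.98). Of these 15, let-7b-3p was the only call, where 0.631% of all miRNAs were called. At an unadjusted p under 0.05 in edgeR, 4 of the 3p arms were higher (12.3% of all miRNAs were). At the same threshold 1 of the 5p arms was lower (6.94% of all miRNAs were). Without month 6 replicates 2 and 4 the median over the 15 members was 0.23. That of the 5p arms was then 0.27 and that of the 3p arms 0.11, so the arms no longer had medians of opposite sign. let-7a-5p turned from -0.18 ± 0.50 to 0.46 ± 0.42. How reads that match several let-7 members were split is not given in the sources used here.

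let-7i-5p was the 1 let-7 member whose month 6 libraries all lay below month 2. It was at 41155, 42553, 61439, 44229 and 56274 CPM at month 2 and 37484, 13804, 28988, 18843 and 27879 CPM at month 6, without overlap. The log2 change was -0.71 ± 0.29 and did not pass (edgeR adjusted p = 0.207). Month 6 replicates 2 and 4 were the lowest, and without them it was -0.38 ± 0.29 (edgeR adjusted p = 0.809).

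**Figure D2:**
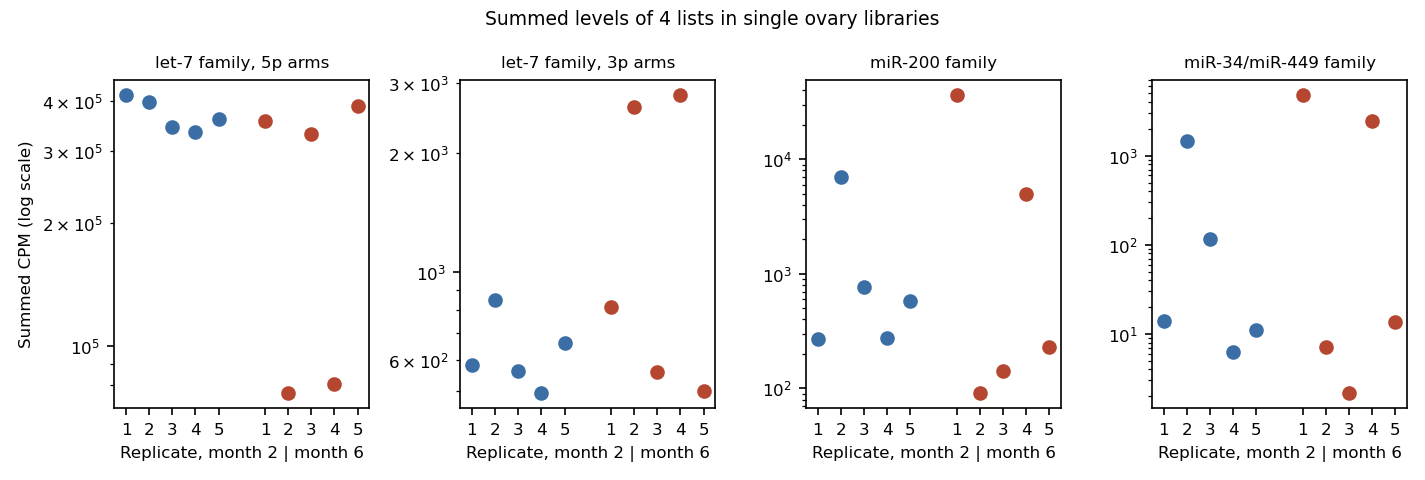
Summed CPM (log scale) of the let-7 5p arms, the let-7 3p arms, the miR-200 family and the miR-34/miR-449 family in each ovary library, month 2 in blue and month 6 in red. Month 6 replicates 2 and 4 are low in let-7 5p arms and high in 3p arms, and month 6 replicate 1 is the highest library for both epithelial families.

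Among the miRNAs that were lower at month 6, miR-148b-3p had the lowest p. It is a member of the miR-148/miR-152 family, known for repressing DNA methyltransferase genes. The miRNA stood at 10031, 5635, 10666, 8426 and 6774 CPM at month 2. At month 6 it stood at 2971, 2050.1, 1603, 1933 and 3013 CPM. Every month 6 library, replicates 2 and 4 included, lay below every month 2 library. The change was -1.64 ± 0.40, or 3.12 times lower, and missed the threshold (edgeR adjusted p = 0.0539). It passed with DESeq2 size factors (-1.55, edgeR adjusted p = 0.0429), in DESeq2 (adjusted p = 0.00382), with a minimum of 10 CPM in 5 libraries (-1.55, edgeR adjusted p = 0.0336) and with only the 2 groups in the fit (-1.59, edgeR adjusted p = 0.0243). It also passed without month 6 replicate 1 (-1.59, edgeR adjusted p = 0.0300) or replicate 5 (-1.64, edgeR adjusted p = 0.0360). Without month 6 replicates 2 and 4 it was -1.51 ± 0.47 (edgeR adjusted p = 0.567), and when ovary day 1 replicate 3 was left out as well it was -1.58 and passed (edgeR adjusted p = 0.0391). Month 4 libraries held 1412 to 5155 CPM.

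The star arm of that hairpin, miR-148b-5p, was at 21.0, 21.0, 21.7, 16.1 and 24.0 CPM at month 2 and 16.5, 15.7, 10.6, 14.3 and 14.2 CPM at month 6, a change of -0.30 ± 0.23. miR-148a-3p, which shares the seed of miR-148b-3p, was among the 10 most abundant miRNAs. It held 26848, 28529, 39102, 37392 and 38107 CPM at month 2 and 19982, 108252, 28138, 128270 and 17342 CPM at month 6, where replicates 2 and 4 were far above month 2, replicate 3 lay within its range and replicates 1 and 5 below it. Its estimate of 1.12 ± 0.50 (edgeR adjusted p = 0.244) turned to -0.34 ± 0.37 without those libraries.

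miR-145-3p, from the smooth muscle cluster with miR-143, was at 237, 378, 282, 274 and 255 CPM at month 2 and 360.3, 617, 550.4, 686 and 708 CPM at month 6. Only month 2 replicate 2 and month 6 replicate 1 overlapped, and on the TMM scale no library did. The change was 1.28 ± 0.33 (edgeR adjusted p = 0.0539, DESeq2 adjusted p = 0.00571) and 1.19 ± 0.40 without month 6 replicates 2 and 4 (edgeR adjusted p = 0.616). The other 3 arms of the cluster were at 0.46 to 0.86, and miR-143-3p, the most abundant miRNA of the 10 libraries, was at 68519.8 ± 13889.8 CPM at month 2 and 104164 ± 48439.9 CPM at month 6 (mean ± SD, n = 5). Month 6 replicates 2 and 4, at 109358 and 186562 CPM, lay above every month 2 library, and the other month 6 libraries lay within the month 2 range. The change of miR-143-3p was 0.86 ± 0.65, and 0.37 ± 0.78 without those replicates (edgeR adjusted p = 0.465 and 0.948). Smooth muscle and stromal cells were not counted here, and in bulk tissue fewer cells of a type cannot be told apart from less RNA per cell.

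**Figure D3:**
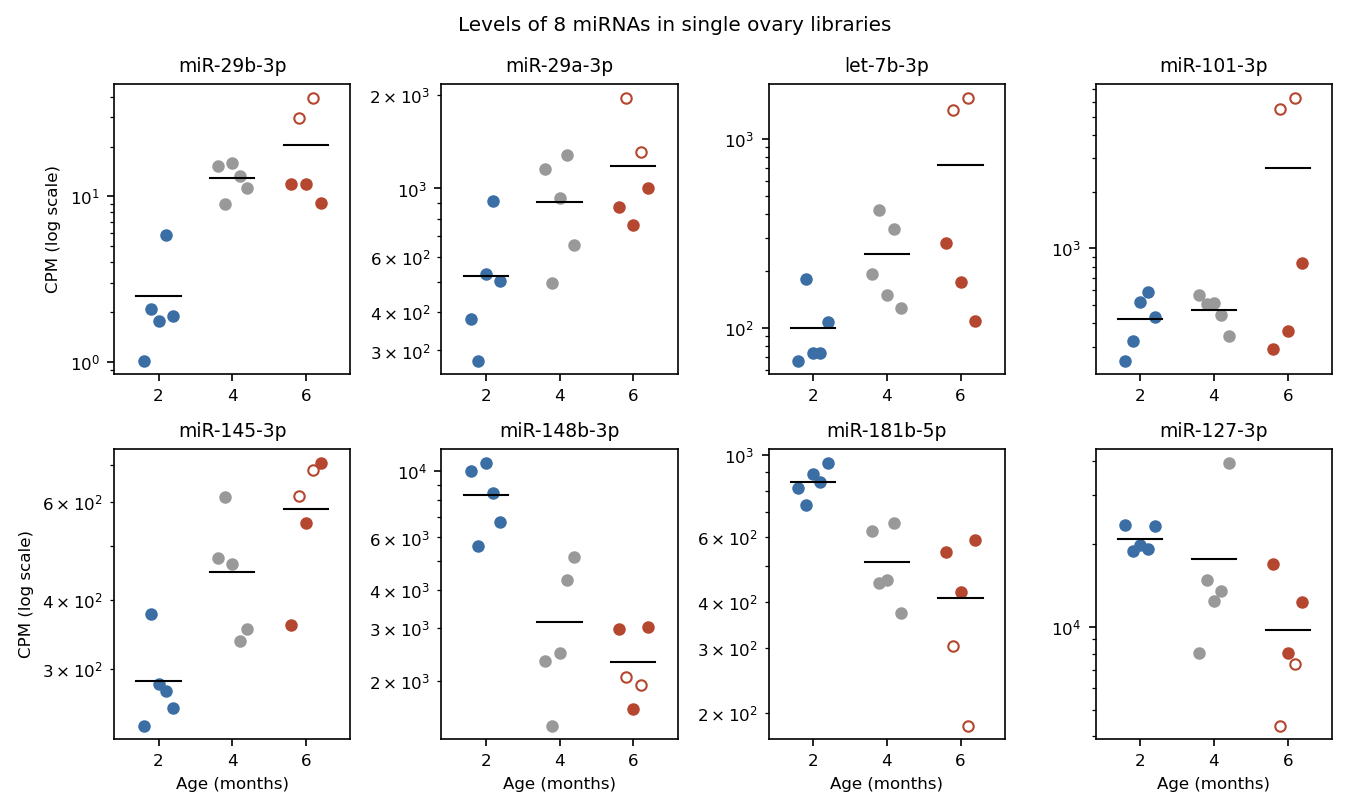
CPM (log scale) of 8 miRNAs in single ovary libraries at months 2, 4 and 6, with the group mean as a line. Open circles are month 6 replicates 2 and 4, which are the highest points for miR-29b-3p, miR-29a-3p, let-7b-3p and miR-101-3p. For miR-148b-3p they lie between the other month 6 libraries.

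A further set of estimates toward higher levels rested on month 6 replicates 2 and 4. miR-101-3p, known for repressing the Polycomb gene EZH2, held 253, 324, 522, 590.1 and 432 CPM at month 2 and 294, 5489, 365, 6300.5 and 834 CPM at month 6, with replicates 2 and 4 far above the rest and replicate 5 also above every month 2 library. Its change of 2.93 ± 0.75 (edgeR adjusted p = 0.0539) became 0.50 ± 0.48 without them. miR-1248-5p, at 10 to 42 counts a library at month 2, had 410 and 547 counts in those 2 libraries and 25 to 31 in the other month 6 libraries; its change of 3.00 ± 0.81 (edgeR adjusted p = 0.0665) became 0.21 ± 0.57. miR-374a-5p went from 1.47 ± 0.49 to 0.52 ± 0.43 and miR-328-3p from 1.38 ± 0.43 to 0.58 ± 0.40 in the same way, neither passing in edgeR (adjusted p = 0.131 and 0.0997).

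**Figure D4:**
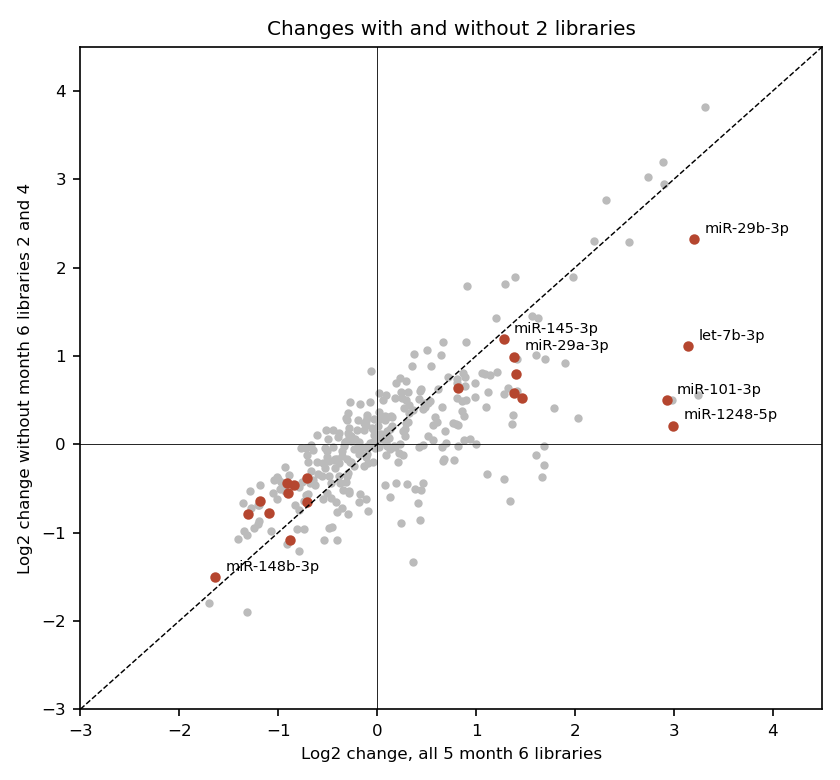
Log2 change of each miRNA with all 5 month 6 libraries (x axis) and without month 6 replicates 2 and 4 (y axis); red points follow the naming rule and the dashed line marks equal values. miR-148b-3p and miR-145-3p lie near the line, and miR-101-3p and miR-1248-5p near 0 on the y axis.

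Of the other miRNAs chosen on the higher side, miR-129-3p, found in neural and endocrine cells, stood at 13.2, 13.3, 11.4, 14.6 and 20.0 CPM at month 2 and 26.3, 69.5, 17.8, 29.3 and 19.9 CPM at month 6, where replicate 2 was far above the rest. It had an estimate of 1.40 ± 0.37 (edgeR adjusted p = 0.0654), or 0.79 ± 0.34 without replicates 2 and 4. miR-26a-5p, abundant in quiescent differentiated tissue, held 38459 ± 7685 CPM at month 2 and 58012 ± 14065 CPM at month 6 (mean ± SD). Its change was 0.82 ± 0.28 (edgeR adjusted p = 0.133), and 0.63 ± 0.31 without month 6 replicates 2 and 4 (edgeR adjusted p = 0.695).

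Across the 317 miRNAs, 14 (4.42%) had all 5 month 6 values below all 5 month 2 values in CPM and 1 (0.315%), miR-29b-3p, had all 5 above, 15 (4.73%) in all. On the TMM scale the numbers were 11 (3.47%) below and 4 (1.26%) above, the latter being miR-29b-3p, miR-145-3p, miR-129-3p and miR-26a-3p. For month 6 replicates 1, 3 and 5 alone against month 2 there were 23 (7.26%), 4 higher (1.26%) and 19 lower (5.99%). miR-181b-5p, a member of the miR-181 family known from lymphocyte development and follicular cells, was among the lower ones on both scales. It stood at 814, 734, 889, 844 and 954 CPM at month 2 and 545, 303, 424, 184 and 587 CPM at month 6, with the month 2 libraries close together and month 6 replicate 4 the lowest. The change was -0.84 ± 0.31 (edgeR adjusted p = 0.157), and -0.46 ± 0.30 without month 6 replicates 2 and 4 (edgeR adjusted p = 0.809). miR-330-5p, at 14.5, 16.1, 16.5, 11.7 and 13.6 CPM and then 4.43, 9.83, 5.18, 6.36 and 7.41 CPM, likewise did not overlap (-0.88 ± 0.29, edgeR adjusted p = 0.131) and was at -1.09 ± 0.34 without month 6 replicates 2 and 4. The other miRNAs that the naming rule chose on the lower side, miR-146b-5p, miR-130b-5p, miR-199b-5p, miR-15b-5p, miR-487b-3p and miR-127-3p, had estimates of -0.71 to -1.31 and edgeR adjusted p-values of 0.204 to 0.244. Their estimates without month 6 replicates 2 and 4 were -0.78, -0.64, -0.66, -0.79, -0.44 and -0.55 in the same order.

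Of the 14 miRNAs with no overlap on the lower side, 7 came from the DLK1-DIO3 cluster, an imprinted locus expressed from the maternal chromosome that is active in fetal and placental growth. Of its 44 tested members 7 had no overlap in CPM, where 4.42% of all miRNAs had none on the lower side, and 4 on the TMM scale, where 3.47% of all had none. miR-127-3p, its most abundant member, was at 23349, 18928, 19869, 19117 and 23241 CPM at month 2 and 16867, 4368, 8029.9, 7343 and 12271 CPM at month 6. Replicate 1 was the month 6 library nearest to month 2, and replicate 2 was the lowest. Its change was -0.90 ± 0.39, and -0.55 ± 0.44 without month 6 replicates 2 and 4. miR-323a-3p, with 33.1, 36.2, 32.2, 23.1 and 35.6 CPM and then 16.9, 13.6, 13.9, 16.5 and 17.4 CPM, was low in every month 6 library alike (-0.78 ± 0.37 and -0.75 ± 0.48). The summed level of the cluster was 28063, 24433, 25752, 23506 and 30273 CPM at month 2 and 20749.8, 5745, 10563, 10007 and 16074 CPM at month 6, all 5 below month 2. Most of this sum was miR-127-3p, with a mean of 20901 of 26406 CPM at month 2 and 9776 of 12628 CPM at month 6. It therefore says little about the other members.

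No member of the cluster passed in edgeR, and DESeq2 called miR-136-5p. At an unadjusted p under 0.05, 6 were lower (6.94% of all miRNAs were) and 2 higher (12.3% of all). Of the 44 estimates 37 were negative, with a median of -0.71 against 0.02 over all miRNAs. That median was -0.63 with DESeq2 size factors, -0.94 with library totals and -0.45 without month 6 replicates 2 and 4, and between -0.67 and -0.44 when single libraries were left out, the value nearest 0 being that without month 6 replicate 2. Both arms of miR-136 were the exception at the other end: miR-136-3p held 4.06, 5.94, 9.61, 7.01 and 11.9 CPM at month 2 and 2.85, 38.3, 2.90, 45.2 and 10.2 CPM at month 6, high only in replicates 2 and 4, and its estimate turned from 1.69 ± 0.66 to -0.24 ± 0.55 without them.

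**Figure D5:**
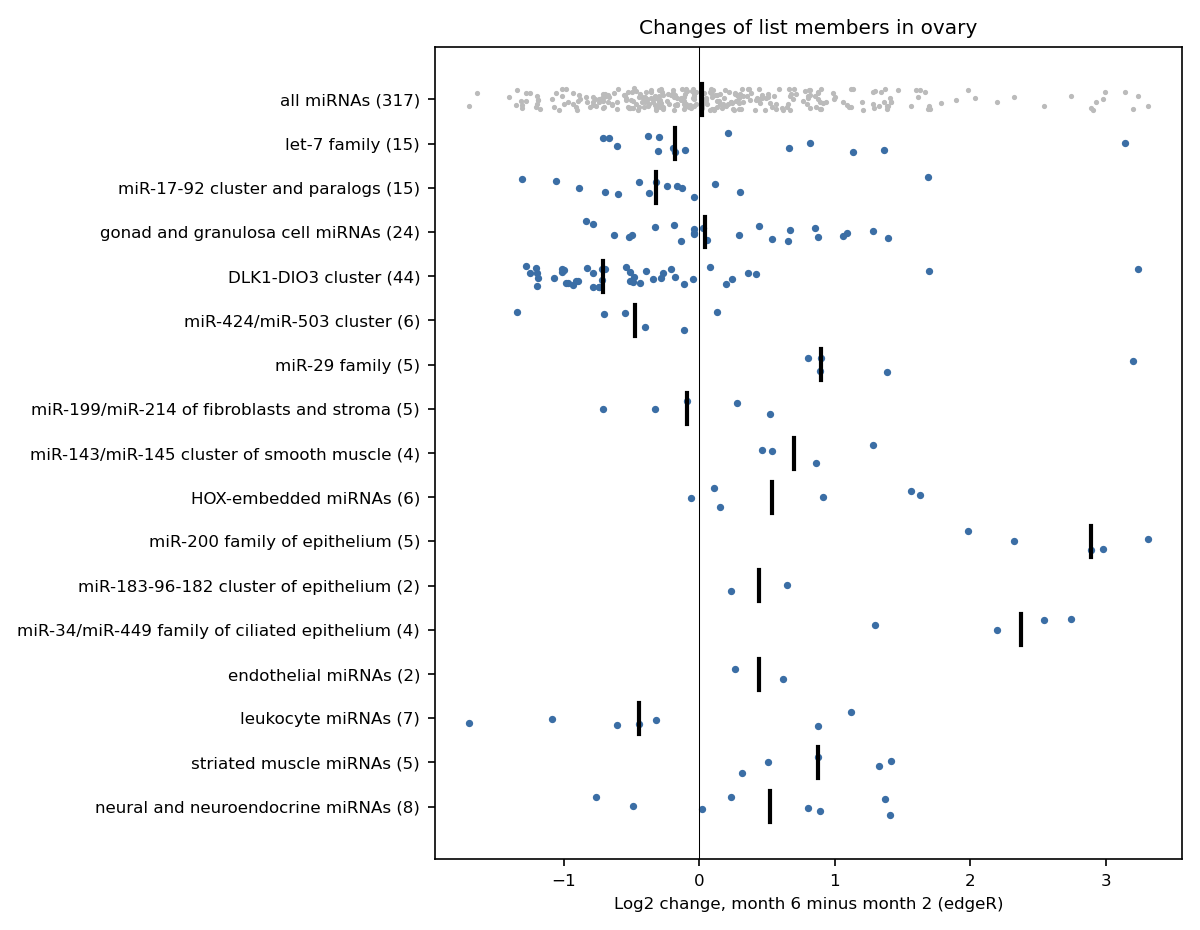
Log2 change (month 6 minus month 2, edgeR) of each tested member of the lists with at least 2 tested members, with the number tested in brackets, the median as a black bar and all miRNAs in grey. The DLK1-DIO3 cluster has a median of -0.71 and the miR-29 family one of 0.90.

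Among 24 tested miRNAs of the gonad and granulosa cells none was called (0.631% of all miRNAs were), and their median was 0.04 against 0.02 over all. At an unadjusted p under 0.05 in edgeR, 3 were higher (12.3% of all miRNAs were) and 1 lower (6.94% of all). miR-202-5p, the gonad miRNA, was at -0.13 ± 0.90 and miR-202-3p at -0.52 ± 0.81, the latter with 46.5, 3.96, 62.6, 10.5 and 77.1 CPM at month 6 and thus low in replicates 2 and 4. miR-21-5p, a survival factor of granulosa cells after the ovulatory surge, was at 3520.4, 5438, 6899, 2990.5 and 6958 CPM at month 2 and 3983, 14804, 4120.4, 10517 and 4835 CPM at month 6. Its estimate of 0.88 ± 0.64 became 0.05 ± 0.73 without month 6 replicates 2 and 4. miR-224-5p, which targets SMAD4 in granulosa cells, and miR-383, which acts on steroid synthesis there, were at 0.05 ± 0.35 and -0.50 ± 0.65. miR-125b-5p, abundant in follicles, was at 1.06 ± 0.42 (edgeR adjusted p = 0.204), with levels of 33367, 38034, 31833, 51326 and 36193 CPM and then 48848, 112806, 51053, 60541 and 71139 CPM.

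The miR-17-92 cluster and its paralogs, which promote proliferation, had 12 of 15 estimates below 0, where 156 of all 317 were. Their median was -0.32 against 0.02 over all miRNAs, and 0 were called (0.631% of all were). At an unadjusted p under 0.05 in edgeR, 2 were lower (6.94% of all miRNAs were) and 1 higher (12.3% of all). miR-363-3p was the member with the lowest p (-1.31 ± 0.37, edgeR adjusted p = 0.0769), at 11.7, 9.79, 18.0, 5.11 and 16.2 CPM and then 4.91, 2.93, 2.52, 2.62 and 7.41 CPM. miR-92a-3p, its most abundant member, was at 0.12 ± 0.43. In the miR-424/miR-503 cluster, which restrains the cell cycle, 5 of 6 estimates were negative, with miR-542-5p at -1.35 ± 0.42 (edgeR adjusted p = 0.104). Neither list had a call by edgeR; DESeq2 called miR-363-3p and miR-542-5p (adjusted p = 0.0245 and 0.0380).

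The epithelial markers differed widely between libraries of the same age. All 5 members of the miR-200 family of epithelium were tested, with a median estimate of 2.89 and no call. Their summed level was 269.8, 7034, 764, 275 and 582 CPM at month 2 and 36507, 90.5, 142, 4942 and 229 CPM at month 6. Month 6 replicate 1, month 2 replicate 2 and month 6 replicate 4 held the most, while 3 month 6 libraries lay below every month 2 library. The miR-34/miR-449 family, found in ciliated epithelium and tested in 4 of 9 entries, had sums of 6.28 to 1446 CPM at month 2 and 2.15 to 4814 CPM at month 6 and was highest in those same 3 libraries. Without month 6 replicate 1 the median of the miR-200 family was 1.03 and that of the miR-34/miR-449 family 0.86, without month 2 replicate 2 they were 4.33 and 5.83, and with the replicate number as a block 0.82 and 1.51. Month 6 replicates 1 and 4, with the most miR-200 at that age, held 2971 and 1933 CPM of miR-148b-3p. Month 6 replicates 2, 3 and 5 held 2050.1, 1603 and 3013 CPM of it. For miR-29b-3p the levels were 11.9 and 39.4 CPM in replicates 1 and 4. They were 29.6, 11.9 and 9.11 CPM in replicates 2, 3 and 5. The part of such epithelium in these and the other results was not tested.

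Of 7 leukocyte miRNAs none was called in edgeR (0.631% of all miRNAs were). At an unadjusted p under 0.05, 2 were lower (6.94% of all miRNAs were) and 1 higher (12.3% of all). miR-146b-3p, from the miR-146 family that dampens inflammatory signalling, was the lowest estimate of all 317 at -1.70 ± 0.50 (edgeR adjusted p = 0.0874), and -1.80 ± 0.63 without month 6 replicates 2 and 4. It stood at 16.1, 20.8, 12.3, 7.45 and 7.77 CPM and then 5.07, 3.23, 0.884, 3.87 and 4.17 CPM, without overlap. The lymphocyte miRNA miR-150 was at 0.87 ± 0.54, and the endothelial miR-126-3p at 0.27 ± 0.41. miR-146a, which shares its seed with miR-146b-5p, was at 1.12 ± 0.39 and at 0.59 ± 0.40 without month 6 replicates 2 and 4. The stromal miR-199/miR-214 list had a median of -0.09, which was 0.03 with DESeq2 size factors. Striated muscle and neural lists had medians of 0.88 and 0.52 (0.61 and 0.22 without month 6 replicates 2 and 4), neither with a call by edgeR. In these lists and the leukocyte list DESeq2 called miR-499-5p, miR-129-3p, miR-146b-3p and miR-146a (adjusted p = 0.0380, 0.00790, 0.0245 and 0.0392). Red blood cell miRNAs summed to 11.9 to 39.9 CPM in all 10 libraries, and the liver miRNA miR-122 did not exceed 12.8 CPM. Pluripotency miRNAs had no entry in the table.

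The ratio of the 5p to the 3p arm of a hairpin does not depend on the scaling between libraries, apart from the pseudocount, and it was compared for the 99 hairpins with both arms tested. By limma 0 of 99 ratios passed (0%), with 16 (16.2%) at an unadjusted p under 0.05 and 2 (2.02%) without overlap. Those 2 were miR-29b and miR-148b. The log2 ratio of miR-29b was 0.06 ± 0.59 at month 2 and -2.27 ± 1.61 at month 6 (mean ± SD, n = 5), a change of -2.33 ± 0.66 (limma adjusted p = 0.0851). That of miR-148b was -8.61 ± 0.47 and -7.30 ± 0.29, a change of 1.31 ± 0.41 (limma adjusted p = 0.0851). The lowest p belonged to let-7i, at 14.26 ± 0.58 and 12.39 ± 1.14, a change of -1.87 ± 0.48 (limma adjusted p = 0.0696). With 243397 to 453885 counts of let-7i-5p a library at month 2, ratios of this size leave few counts on its 3p arm. miR-335 and miR-140 had estimates toward the 5p arm (limma adjusted p = 0.0851 for both), that of miR-335 being 1.40 ± 0.42. The changes without month 6 replicates 2 and 4 were -1.39 ± 0.63 for miR-29b, 1.13 ± 0.48 for miR-148b, -1.18 ± 0.46 for let-7i and 1.05 ± 0.45 for miR-335 (limma adjusted p = 0.524 for each). Without month 6 replicate 1 there were 5 calls, without replicate 5 there were 4, and without month 2 replicate 4 and month 6 replicate 3 there were 2 and 1, while each other single removal left 0.

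Whether these changes were particular to ovary was asked by testing the change from month 2 to month 6 in ovary against that in uterus, in a fit of all 40 libraries. By edgeR 0 of 350 miRNAs passed (0%), with 31 (8.86%) at an unadjusted p under 0.05; DESeq2 called 1, miR-335-5p. The uterus itself had 6 calls between these ages (1.71%) and 65 at an unadjusted p under 0.05 (18.6%). miR-148b-3p had the lowest p: its uterus level was 1272 to 2470 CPM at month 2 and 1338 to 2072 CPM at month 6, and the change in ovary minus that in uterus was -1.57 ± 0.43 (edgeR unadjusted p = 0.000876, adjusted p = 0.166). For miR-335-5p, made from an intron of the imprinted gene MEST, that difference was 3.03 ± 0.84 (edgeR adjusted p = 0.166), the uterus estimate being negative at -1.52 and the ovary estimate positive at 1.51. The next by p were miR-135b-5p, miR-504 and miR-409-5p (edgeR adjusted p = 0.395 for each). For let-7b-3p the uterus estimate in the same fit was 4.21 and the ovary estimate 3.25, and for miR-29b-3p they were 1.13 and 3.29. The difference was -0.96 ± 1.25 for let-7b-3p and 2.16 ± 1.13 for miR-29b-3p, so neither was shown to differ between the tissues. Uterus month 6 replicates 4 and 5 resembled ovary month 6 replicates 2 and 4, with mean rank correlations to them of 0.940 and 0.923 against 0.854 to 0.878 for the other uterus month 6 libraries, and let-7b-3p ranged there from 103 to 2489 CPM. Without the 5 libraries of the series that stood apart, which are these, the ovary pair and uterus month 4 replicate 4, edgeR called 0 of 352, with 37 at an unadjusted p under 0.05. The difference between the tissues was then -1.54 ± 0.52 for miR-148b-3p, 3.38 ± 0.90 for miR-335-5p, -0.78 ± 0.89 for let-7b-3p and 2.19 ± 1.20 for miR-29b-3p.

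Month 4 ovaries, with 5 libraries, entered this comparison only through the filter, the TMM scaling and the spread. Their mean lay between those of months 2 and 6 for 141 of the 317 miRNAs, beyond month 6 for 87 and beyond month 2 for 89. Of the 15 miRNAs without overlap, 12 had a month 4 mean between the other ages. Those 15 were chosen for separate month 2 and month 6 values, which in itself makes a mean between them more likely. The 12 are therefore no test of a trend. For miR-148b-3p the month 4 mean of 3135 CPM was nearer to month 6 (2314 CPM) than to month 2 (8307 CPM), whereas for miR-101-3p it was 474 CPM and near month 2 (424 CPM).

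The 10 most abundant miRNAs held 57.4% ± 2.86 of all counts at month 2 and 62.8% ± 4.39 at month 6 (SD, n = 5). They were miR-143-3p, miR-99a-5p, let-7a-5p, miR-10b-5p, let-7c-5p, miR-125b-5p, miR-26a-5p, miR-148a-3p, let-7b-5p and let-7f-5p, and none was called. miR-99a-5p, which targets mTOR and IGF1R, was at 0.66 ± 0.34, and miR-10b-5p, whose gene sits among the HOX genes, at 0.16 ± 0.35, a sign that turned with library totals. In the RefSeq annotation of goat (ARS1.2), in which 247 of 263 hairpin names had a placed entry, miR-148b lies within COPZ1, miR-26a within CTDSPL, miR-1248 within EIF4A2 and miR-140 within WWP2. let-7b neighbours let-7a, and miR-145 neighbours miR-143. The build used for the counts is not given in the sources used here, so no positions are printed.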

How the data were processed

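Small RNA libraries of goat ovary at months 2 and 6 (5 each) were compared. The authors deposited raw read counts per mature miRNA in 1 table of 40 libraries; whole numbers in 100% of values. Per the submitters' processing notes, cutadapt 1.16, Bowtie 1.0.1 and RSEM 1.3.0 were used, with no role or order named. Which genome build and miRNA annotation were used, and how reads were split among paralogs, is not given in the sources used here. Reads may therefore be divided unevenly among let-7, miR-29, miR-148 and other near-identical members. Of the table's columns of per-sample values, 0 were left unused.

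Counts of all 20 ovary libraries (4 ages) were fitted with edgeR 4.0.16 (R 4.3.3), using filterByExpr, TMM scaling, the quasi-likelihood test and Benjamini-Hochberg adjustment (call at an adjusted p under 0.05). The 2 other ages enter for the filter, the scaling and the spread. edgeR gave a common biological coefficient of variation of 0.624. In the text, CPM is the count scaled to a library total of 1000000, and ± after a log2 change is the SE. Log2 ratios of 5p to 3p counts, each plus 1, were tested with limma 3.58.1, and the tissue interaction with edgeR on all 40 libraries. Of 427 miRNAs, 110 were below the filter, and 16 had no count in the 10 libraries. The edgeR and limma steps were tested on simulated data. Depth of 5719892 to 8017302 counts a library makes counting error small except for miRNAs of a few CPM.

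Named were the 10 largest rises and falls among calls at a mean of at least 10 CPM, filled up to 10 a direction by the lowest p-values, members of 19 lists, the 10 most abundant miRNAs, and the 5 arm ratios and 5 interactions of lowest p. miR-335-5p, miR-146b-5p and other list members fall under these rules; miR-148b-5p and miR-26a-3p were added after their values were seen. The members and lists were chosen with earlier results of these data known. Alternatives were DESeq2 1.42.0 and its size factors, library totals, no filter or at least 10 CPM in 5 libraries, other pseudocounts (0.5 and 5), a replicate block, fewer groups in the fit and leaving out single libraries. Leaving out the libraries that stood apart (month 6 replicates 2 and 4, and 3 uterus libraries in the interaction) or were doubted (ovary day 1 replicate 3, and uterus month 2 replicate 1) was chosen after seeing the data. No sequences were used here.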

Additional observations from a re-analysis of the deposited data

Results flagged for a closer look

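In 60 tests of a group of 5 values for a single high or low library (Dixon's test, gap over range above 0.71), 3 groups had one, where chance alone gives about 1 in 20. miR-129-3p was highest in month 6 replicate 2 at 69.5 CPM, with the next library at 29.3 CPM. miR-29b-3p was highest among month 2 libraries in replicate 4 at 5.84 CPM, with the next at 2.10 CPM, and without that library its change was 4.04 (edgeR adjusted p = 0.00532). The number of miRNAs detected at month 6 was lowest in replicate 3 at 344, with the next library at 362.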

How the results depend on the processing

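Against 2 calls between the ages, there were 8 with DESeq2 size factors, 7 with at least 10 CPM in 5 libraries, 25 with DESeq2, 1 when the fit held months 2 and 6 alone, 0 without month 6 replicates 2 and 4, and 2 (1 higher, 1 lower) with day 1 replicate 3 also left out. Single removals gave 0 to 21. For arm ratios, single removals gave 0 to 5 calls against 0. For the tissue interaction, 1 call against 0 came with the 10 CPM minimum and 1 with DESeq2, both miR-335-5p, and single removals gave 0 to 0. With the replicate number as a block there was 1 call between the ages, and 0 for arm ratios and interaction. Libraries of the same number correlated at -0.286 to 0.276 in their deviations, 1 of 5 pairs over 0.1. Of the month 6 libraries, 0 correlated best with their own number. The labels do not say whether a number is shared between ages, and 5 pairs are too few to exclude it. The libraries were treated as unpaired.

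The difference in detected miRNAs turned from 1.80 to -4.40 at 10 counts or more, to -5.40 at 1 CPM or more and to -0.933 without month 6 replicates 2 and 4; single removals gave -0.35 to 6.15, with -0.1 without month 6 replicate 4. Among alternatives for the changes of named miRNAs, 470 kept direction and side of the threshold, 44 newly passed, 19 no longer passed and 17 turned sign. let-7a-5p ranged from -0.40 to 0.13 over single removals, being 0.02 without month 2 replicate 1 and 0.120 without month 6 replicate 4. let-7b-5p ranged from -0.50 to 0.0127 (0.0067 without month 6 replicate 2) and let-7f-5p from -0.46 to 0.0828 (0.0149 without month 6 replicate 4). Without month 6 replicates 2 and 4 these 3 were at 0.46, 0.35 and 0.27, and with day 1 replicate 3 also left out at 0.39, 0.29 and 0.18; miR-148a-3p was at -0.34 and -0.44. miR-10b-5p was at -0.0987 with library totals and ranged from -0.0856 (without month 6 replicate 3) to 0.496 over single removals. The cause was not tested. Depth limits miR-29b-3p at month 2, at 7 to 40 counts a library, and the arm ratio of let-7i through its 3p arm.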

Other observations

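MicroRNAs encoded within the HOX clusters, whose host genes pattern the body axis, differed widely between libraries of the same age. miR-10a-5p held 1721, 10450, 1402, 5108 and 1320.2 CPM at month 2 and 28115, 1306, 1133, 21728 and 3299.5 CPM at month 6. Month 2 replicate 2 and month 6 replicates 1 and 4 were the highest, which are also the 3 libraries with the most miR-200. miR-196b, from another HOX cluster position, held 71.8, 0.699, 71.5, 543 and 41.1 CPM and 1.74, 2.35, 388, 5.11 and 255 CPM, and was under 10 CPM in those same 3 libraries and in month 6 replicate 2. miR-196a was likewise high only in replicates 3 and 5 at month 6, with 3.80, 2.93, 257, 2.62 and 171 CPM. None of the 6 HOX-embedded miRNAs had an unadjusted p under 0.05 in edgeR between the ages, where 19.2% of all miRNAs had.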
